A study of Mus musculus with 4 samples.

Results

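The collagen genes were examined in mouse epidermis in which beta-catenin, the effector of canonical Wnt signalling, was activated. Members were the probe sets annotated to a single gene whose symbol is Col, a number, a and a number, with Col17a1 left out as a hemidesmosome component. The rule gave 81 probe sets for 41 genes, of 18193 genes named on the array, and no probe set naming several genes held a collagen. A probe set is the group of short oligonucleotides that reads a transcript on the Affymetrix Mouse430_2 array. Mutant embryos were KRT14-Cre Ctnnb1(Ex3)fl/+, with 1 conditional allele from which Cre removes exon 3, and they were set against littermate controls whose own genotype is not given in the sources used here. Cre was driven by the keratin 14 promoter, so recombination is directed to keratin 14-expressing epithelium. All embryos were at E15.5 (embryonic day), dorsal skin was parted into epidermis and dermis with dispase, and 2 mutant and 2 control arrays were hybridised with epidermal RNA, each from 1 embryo as the labels give it.

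Collagens are triple helices of alpha chains, and their types build different structures. Fibrillar types I, III and V form the fibres of the dermis and are secreted mainly by fibroblasts, type IV forms the network of basement membranes, and type VII forms the anchoring fibrils that tie the epidermal basement membrane to the dermis and is made by keratinocytes as well as fibroblasts. FACIT collagens (fibril-associated, with interrupted helices) decorate fibrils, and types II, IX and XI are best known from cartilage. Basement membrane chains of skin can come from keratinocytes as well as from dermal cells.

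Promoter windows are shown for the chain pair whose start sites face each other, for members with large rises and for dermal chains, since these are the genes on which the description turns. Windows run from 250 bases before to 50 after the RefSeq start (GRCm38.p6), and 32 of the 41 genes had one. Col4a1 (chr8:11312777-11313076, minus strand) and Col4a2 (chr8:11312555-11312854, plus strand) are divergent neighbours whose annotated starts lie 21 bases apart. Capitals mark the 78 bases that both of their windows hold.
Col4a1: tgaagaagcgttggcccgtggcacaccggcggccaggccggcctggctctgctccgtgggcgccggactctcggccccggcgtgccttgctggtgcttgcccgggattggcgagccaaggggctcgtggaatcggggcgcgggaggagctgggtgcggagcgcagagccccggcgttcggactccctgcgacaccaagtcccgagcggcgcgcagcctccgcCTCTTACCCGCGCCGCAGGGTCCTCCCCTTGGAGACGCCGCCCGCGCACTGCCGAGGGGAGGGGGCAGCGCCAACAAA
Col4a2: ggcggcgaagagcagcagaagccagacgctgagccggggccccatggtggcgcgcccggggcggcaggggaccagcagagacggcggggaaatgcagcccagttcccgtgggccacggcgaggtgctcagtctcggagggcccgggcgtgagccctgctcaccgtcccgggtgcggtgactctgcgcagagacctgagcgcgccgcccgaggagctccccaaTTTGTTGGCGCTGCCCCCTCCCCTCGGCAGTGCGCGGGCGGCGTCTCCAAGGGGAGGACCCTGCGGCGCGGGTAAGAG
In the next 4 windows capitals mark the letters TATAAA (those of a TATA box) or CCAAT (those of a CCAAT box) on either strand. They are marked wherever they stand in the window, and whether they act as such boxes was not tested. The windows are those of Col11a1 (chr3:114030290-114030589, plus strand), Col19a1 (chr1:24587388-24587687, minus strand), Col1a2 (chr6:4505368-4505667, plus strand) and Col3a1 (chr1:45311288-45311587, plus strand).
Col11a1: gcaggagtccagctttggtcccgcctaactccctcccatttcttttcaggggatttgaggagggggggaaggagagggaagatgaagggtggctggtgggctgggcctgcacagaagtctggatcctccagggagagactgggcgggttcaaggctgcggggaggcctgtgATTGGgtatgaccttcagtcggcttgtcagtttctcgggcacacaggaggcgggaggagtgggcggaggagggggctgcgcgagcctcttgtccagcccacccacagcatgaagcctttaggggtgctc
Col19a1: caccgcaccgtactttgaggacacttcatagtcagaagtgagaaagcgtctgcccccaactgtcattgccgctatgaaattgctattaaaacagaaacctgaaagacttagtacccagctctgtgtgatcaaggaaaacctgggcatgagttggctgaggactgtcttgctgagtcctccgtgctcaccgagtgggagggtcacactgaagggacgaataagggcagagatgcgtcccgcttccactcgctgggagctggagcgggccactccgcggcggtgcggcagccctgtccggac
Col1a2: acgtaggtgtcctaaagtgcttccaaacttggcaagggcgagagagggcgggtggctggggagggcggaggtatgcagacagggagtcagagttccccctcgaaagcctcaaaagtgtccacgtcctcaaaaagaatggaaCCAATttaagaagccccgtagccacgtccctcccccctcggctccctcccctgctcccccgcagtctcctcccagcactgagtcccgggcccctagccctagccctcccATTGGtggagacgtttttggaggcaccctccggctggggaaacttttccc
Col3a1: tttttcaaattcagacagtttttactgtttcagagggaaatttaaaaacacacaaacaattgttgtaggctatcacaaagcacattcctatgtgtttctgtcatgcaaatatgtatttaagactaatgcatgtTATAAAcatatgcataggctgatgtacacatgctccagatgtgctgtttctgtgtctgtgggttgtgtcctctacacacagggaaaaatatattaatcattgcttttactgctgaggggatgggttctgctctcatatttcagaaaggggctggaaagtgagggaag
CCAAT stood in 12 of the 35 collagen windows (34.3%) and in 37.4% of all 32851 windows, TATAAA in 4 (11.4%) and in 13.6%. The TCF/LEF letters CTTTGAA or CTTTGAT, on either strand, stood in 5 collagen windows (14.3%) and in 8.65% of all windows. The 5 were of Col6a2, Col9a1, Col9a2, Col13a1 and Col15a1, of which Col9a2 and Col13a1 were not tested and the other 3 were not called in the comparison of groups. No match says only that these letters are not in this window. Windows of Col1a1, Col2a1, Col4a3, Col5a2, Col9a3, Col12a1, Col14a1, Col22a1 and Col26a1 were not used here.

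The deposited values are signal intensities on a linear scale, already scaled so that every array had the same trimmed mean. A probe set was taken as above background on an array where its signal exceeded that array's 40th percentile, which was 16.1 and 15.496 on the mutants and 14.4 and 14.6 on the controls. It was tested where it was above background on at least 2 arrays, and each gene was read on the tested probe set whose log2 signals averaged highest. Log2 signals were compared with limma over all tested probe sets, and a gene was called at a Benjamini-Hochberg adjusted p under 0.05. Errors of log2 differences are standard errors of that fit, n is 2 arrays per group throughout, and 0.333 is the smallest p that exact permutation of so few arrays allows, so calls rest on the spread that limma pools over probe sets. Replicate arrays correlated at 0.970 (mutants) and 0.972 (controls) over tested probe sets, against 0.813 to 0.815 between groups. The 10 keratinocyte markers were above background on every array, and their summed signal was 27220 and 29896 in mutants, against 52568 and 53355 in controls. Much of that gap was in Krt10 and Krt1, keratins of differentiated layers. Krt10 had 1027 and 835 in mutants and 10965 and 11014 in controls. Krt1 had 484 and 391 in mutants and 6469 and 7295 in controls. The other markers, described after their values were seen, did not move alike. Trp63, a basal cell factor, had 2303 and 2423 in mutants and 2276 and 2605 in controls. Krt15 was lower, with 3493 and 3303 in mutants and 7147 and 6749 in controls. Cdh1 was also lower, with 1914 and 2002 in mutants and 3273 and 3125 in controls. Sfn was higher, with 2685 and 3252 in mutants and 1856 and 2193 in controls. Of 15 measured dermal fibroblast markers other than collagens, 4 and 5 were above background on the mutants and 4 and 6 on the controls, with summed signals of 3944 and 4309 in mutants, against 3903 and 3907 in controls. Dcn makes up most of these sums, and single markers moved both ways, as given with the dermal markers. Among markers named after their values were seen, Pdgfra, Pdgfrb, Twist1 and Prrx1 were below background on all 4 arrays. Dcn, Thy1 and Fap were above it on all 4. Prrx2 was above it on both mutants alone and Twist2 on control 2 alone. The 6 melanocyte markers summed to 4659 and 5799 in mutants and 1307 and 1318 in controls, with 6 and 6 above background in mutants and 5 and 5 in controls. The part of melanocytes in the collagen differences was not tested. In bulk tissue, fewer cells of a type and less RNA per cell cannot be told apart.

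Of the 41 collagen genes 32 had a tested probe set, and 19 of these were called: 11 were higher and 8 lower in the mutant. The 11 that rose were Col2a1, Col4a3, Col4a4, Col5a2, Col8a1, Col9a3, Col11a1, Col11a2, Col18a1, Col19a1 and Col26a1. The 8 that fell were Col1a2, Col4a1, Col5a1, Col6a3, Col12a1, Col14a1, Col16a1 and Col27a1. Over all 12469 genes tested 45.1% were called, 20.6% as higher and 24.5% as lower. Of the 32, 9 passed the filter through the mutant arrays alone and 1 through the controls alone. Such genes had to differ, so the collagen count is a description. Where their change is given as "at least N-fold", the adjusted p is of the signals as deposited, not of that bound. The median log2 difference of the 32 was 0.12, beside -0.06 over all genes. This median is a description too, since it includes the genes that had to differ. Signals of the groups did not overlap for 24 of the 32, where the share over all genes was 75.3%. Among called genes 13 had another tested probe set, and in all of these every other tested probe set was called in the same direction.

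**Figure D1:**
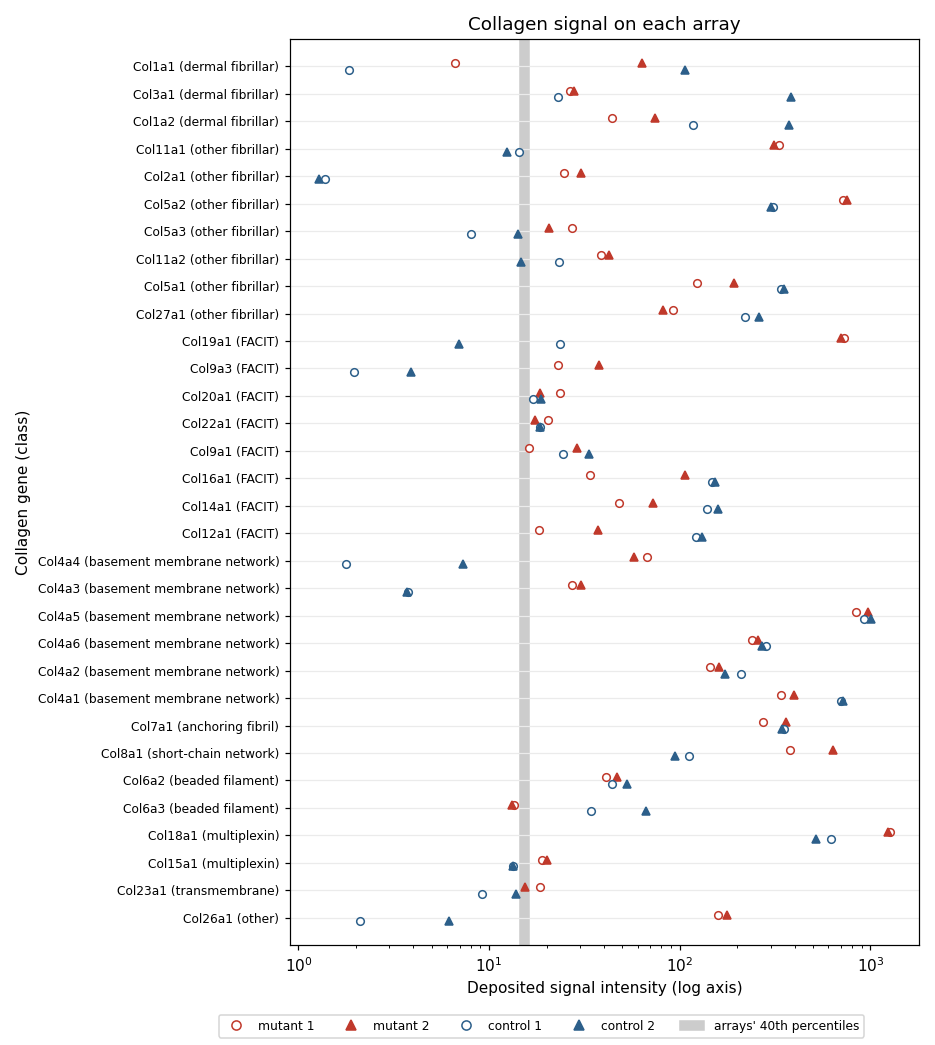
Deposited signal intensity (log axis) of the 32 tested collagen genes on each array, by class, with mutants in red and controls in blue, replicate 1 as open circles and replicate 2 as filled triangles. The grey band spans the 40th percentiles of the arrays (14.4 to 16.1). Col5a2 and Col18a1 show tight, separate groups, while Col1a1 and Col3a1 lie far apart within the controls.

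The type I and III chains differed between arrays of the same group. The grouping of Col1a1, Col1a2 and Col3a1 as dermal chains that vary between replicates was part of the choice of members, so their spread is described and not tested. Col1a1, a chain of type I collagen, had signals of 6.65 and 63.2 in mutants and of 1.84 and 107 in controls, low on the first array and high on the second array of each group. With signals below background raised to the 40th percentile, the second array was 3.92-fold brighter in mutants and 7.39-fold brighter in controls. A further probe set of Col1a1 gave 11.2 and 25.7 in mutants and 3.79 and 26.9 in controls, the same order of arrays. Col3a1, the type III chain, had 26.6 and 27.7 in mutants and 22.9 and 381 in controls, so that control 2 alone stood high, 16.6-fold above control 1, while control 1 lay below both mutants. Col1a2, the partner chain of Col1a1, had 44.0 and 74.4 in mutants and 118 and 376 in controls. The groups of Col1a2 did not overlap, yet control 2 was 3.19-fold above control 1 and mutant 2 was 1.69-fold above mutant 1.

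In the comparison of groups neither Col1a1 (0.55 ± 1.76 on the log2 scale, adjusted p = 0.831) nor Col3a1 (-1.78 ± 1.06, adjusted p = 0.221) was called. Col1a2 fell by 1.88 ± 0.49 (adjusted p = 0.0189), and a second probe set by 2.65 ± 0.57 (adjusted p = 0.00794). The call of Col1a2 was lost without control 2 (-1.04, adjusted p = 0.0546), without mutant 1 (adjusted p = 0.0609) and without the intensity trend of limma (adjusted p = 0.111). For Col3a1 the value was 0.24 without control 2 and -3.81 without control 1 (adjusted p = 4.52e-05), so its sign and its call both depended on which control was kept. For Col1a1 it ran between -2.38 and 3.48 over the alternatives tried.

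Lum, which encodes the dermal proteoglycan lumican, was measured on the same arrays and is named after its values were seen. It had 11.8 and 39.9 in mutants and 12.4 and 59.3 in controls, high on the same arrays as Col1a1. Dcn, which encodes decorin, had 3444 and 3704 in mutants and 2908 and 2900 in controls, agreeing within each group, and Fap, a fibroblast surface protease, had 289 and 349 in mutants and 776 and 749 in controls. Thy1 had 43.0 and 23.4 in mutants and 123 and 93.3 in controls, lower on the second array of each group. Dcn, Fap and Thy1 thus did not share the array pattern of Col1a1. Prrx2 and Dpt were, like Lum, brighter on the second array of each group. Prrx2 had 104 and 121 in mutants and 5.79 and 11.5 in controls, where it was below background. Dpt had 1.16 and 12.1 in mutants, where it was below background, and 16.1 and 18.5 in controls. Of the 6 tested dermal markers other than collagens, 3 were brighter on control 2 than on control 1 and 5 on mutant 2 than on mutant 1. Over 2-fold apart were 1 between controls and 2 between mutants. The part of attached dermis in the fall of Col1a2 was not tested.

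The spread of the other collagens is given as a description too, since agreement within groups was part of the same choice. Between replicates, 4.09% of all genes differed over 2-fold in the mutants and 3.83% in the controls, and 2.35% differed over 4-fold in either pair. Among the 29 tested collagen genes other than Col1a1, Col1a2 and Col3a1, 24 stayed within 2-fold in both groups, as did 11570 of all 12469 genes, which is a larger share. The 5 that did not were Col4a4, Col12a1, Col16a1, Col19a1 and Col26a1, of which Col4a4 and Col26a1 were below background on both controls and Col19a1 on control 2. With low signals raised to the 40th percentiles, 27 of the 29 stayed within 2-fold, leaving Col12a1 (2.04-fold between mutants) and Col16a1 (3.13-fold between mutants), and the share of all genes over 2-fold in either pair was 1.77%.

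**Figure D2:**
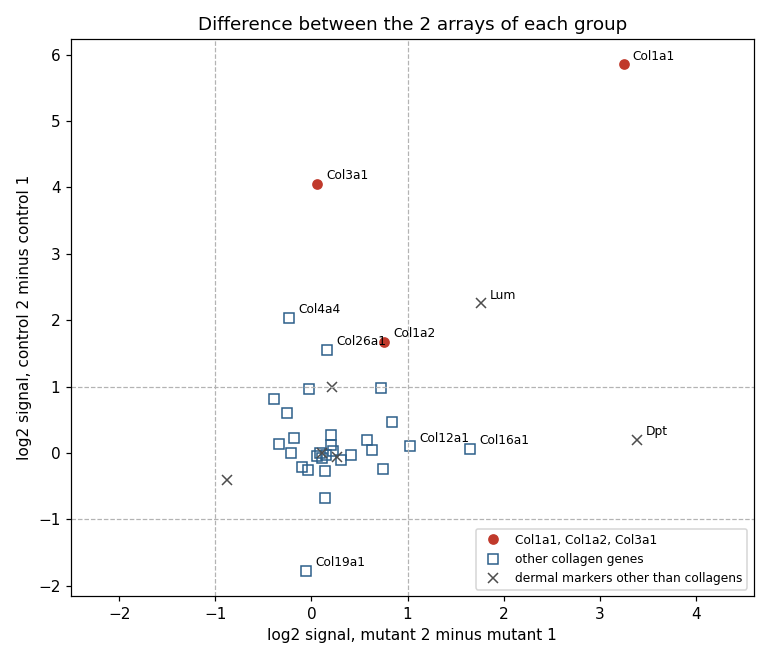
Log2 signal of mutant 2 minus mutant 1 (horizontal) and of control 2 minus control 1 (vertical) for Col1a1, Col1a2 and Col3a1 (red circles), the other tested collagen genes (blue squares) and tested dermal markers that are not collagens (crosses); dashed lines mark a 2-fold difference. Col1a1 lies at 3.25 and 5.86 and Col3a1 at 0.06 and 4.06, and most other collagens lie inside the dashed square.

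Among the basement membrane chains of type IV, Col4a1 fell, Col4a3 and Col4a4 rose, and the others were not called. Col4a1, which pairs with Col4a2 in the ubiquitous network, had 341 and 397 in mutants and 698 and 717 in controls, with no overlap. It fell by 0.94 ± 0.11 on the log2 scale (adjusted p = 0.000452), and its second probe set also fell, with 102 and 158 in mutants and 367 and 353 in controls. Col4a2 had 145 and 159.6 in mutants and 208 and 173 in controls, a value of -0.32 ± 0.15 (adjusted p = 0.125) that did not pass, for a gene whose window shares 78 bases with that of Col4a1. Whether Col4a1 and Col4a2 differ in their response was not tested. Col4a3 and Col4a4, chains of the network known from the kidney glomerulus, neighbour each other on chromosome 1 and were below background on both controls. Col4a3 had 27.2 and 30.3 in mutants and 3.78 and 3.69 in controls, at least 1.98-fold higher (adjusted p = 0.00542). Col4a4 had 67.6 and 57.7 in mutants and 1.78 and 7.33 in controls, at least 4.31-fold higher (adjusted p = 0.00251), and its other 2 probe sets were at least 2.48-fold and 3.65-fold higher.

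Col4a5 and Col4a6, the chains of the network found in skin basement membrane, kept close values in both groups. Col4a5 had 843 and 969 in mutants and 928 and 1005 in controls, with overlapping groups and a value of -0.10 ± 0.11 (adjusted p = 0.510). A second, dimmer probe set of Col4a5 fell by 0.32 ± 0.10 (adjusted p = 0.0364), so the probe sets of this gene did not give the same call. Col4a6 had 239 and 258 in mutants and 284 and 271 in controls (-0.16 ± 0.12, adjusted p = 0.312), and its second probe set had 0.21 ± 0.16. Col7a1, the anchoring fibril collagen, had 273 and 362 in mutants and 351 and 344 in controls. Its groups overlapped, with a value of -0.15 ± 0.15 (adjusted p = 0.475).

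Fibrillar chains other than Col1a1, Col1a2 and Col3a1 moved in both directions, 4 higher and 2 lower of 7 tested. These are too few to read against the 45.1% called of all genes. Among them Col2a1, Col5a3 and Col11a1 passed the filter through the mutant arrays alone. Col5a1 and Col5a2, which encode the chains of type V collagen that regulate fibril diameter, went opposite ways. Col5a2 had 721 and 751 in mutants and 308 and 299 in controls, each group tight, and rose by 1.28 ± 0.10 on the log2 scale (adjusted p = 5.08e-05). Its other probe set rose by 0.60 ± 0.17. Col5a1 had 124 and 191 in mutants and 339.6 and 351 in controls and fell by 1.17 ± 0.20 (adjusted p = 0.00275), with falls of 0.95 and 0.88 on its other probe sets. Col5a3, the third type V chain, was below background on both controls and had 27.2 and 20.7 in mutants (adjusted p = 0.0987). Col5a2 neighbours Col3a1 on chromosome 1, and the array pattern of Col3a1, high on control 2, was absent from it.

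Of the chains best known from cartilage, Col2a1, Col9a3, Col11a1 and Col11a2 rose. Col11a1, a type XI chain of cartilage fibrils, had 333 and 310.2 in mutants and 14.4 and 12.4 in controls, where it was below background. It was at least 22.2-fold higher (adjusted p = 2.64e-06), and its second probe set was at least 8.09-fold higher. Col11a2 had 38.7 and 42.8 in mutants and 23.2 and 14.6 in controls and rose by 1.14 ± 0.35 (adjusted p = 0.0327), a call lost without mutant 1 (adjusted p = 0.0687), mutant 2 (adjusted p = 0.107) or control 2 (adjusted p = 0.129) and with dim probe sets kept in (adjusted p = 0.0622). Col2a1, the main collagen of cartilage, had 24.7 and 30.5 in mutants and 1.38 and 1.28 in controls, at least 1.89-fold higher (adjusted p = 0.00576), a call lost without mutant 1 (adjusted p = 0.0521) or mutant 2 (adjusted p = 0.0805). Col9a3, a type IX chain, had 22.98 and 37.9 in mutants and 1.96 and 3.88 in controls, at least 2.03-fold higher (adjusted p = 0.00702), a call lost without mutant 2 (adjusted p = 0.0774). Col2a1, Col9a3 and also Col4a3, the type IV chain above, lie in the dimmest of 5 equal bins of tested probe sets. In that bin the fit made most of its false calls on simulated data. The bins of the other called collagens were not looked up. The other type IX chains did not follow: Col9a1 had -0.40 ± 0.40 (adjusted p = 0.468), and Col9a2 was below background throughout, with a highest signal of 2.67. The 4 cartilage markers that are not collagens summed to 31.4 and 33.7 in mutants and 14.02 and 25.2 in controls. Acan, Matn1 and Comp were below background on all 4 arrays and Hapln1 was above it on mutant 2 alone (18.3). The part of cartilage in these rises was not tested.

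Col27a1, a fibrillar chain also expressed in epithelia, had 91.8 and 81.1 in mutants and 221 and 259.8 in controls. It fell by 1.47 ± 0.15 (adjusted p = 0.000229), and its second probe set by 1.22 ± 0.25. Col24a1 was below background on every array, with a highest signal of 9.77.

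The FACIT collagens gave 2 rises, 3 falls and 3 genes not called of 8 tested, too few to read against the 45.1% called of all genes. Col9a3, given above, passed the filter through the mutant arrays alone. Col19a1, a rare collagen of basement membrane zones, had 727 and 701 in mutants and 23.6 and 6.93 in controls. It rose by 5.80 ± 0.48 on the log2 scale (adjusted p = 6.87e-05), and since control 2 was below background the size of the fold is uncertain. Its other 2 probe sets had 323 and 354 in mutants against 25.6 and 8.10 in controls, and 67.9 and 70.6 in mutants against 1.11 and 2.29 in controls, the first rising by 4.55 ± 0.46 and the second at least 4.78-fold higher. Mutant signals of this gene agreed within 1.10-fold on all 3 probe sets. Col19a1 neighbours Col9a1 on chromosome 1, and Col9a1 was not called.

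Col12a1, Col14a1 and Col16a1, which associate with fibrils, were lower in mutants. Col12a1 had 18.3 and 37.3 in mutants and 122 and 130.4 in controls and fell by 2.27 ± 0.33 (adjusted p = 0.00125), with a fall of 2.62 ± 0.30 on its other tested probe set. Col14a1 had 48.2 and 72.0 in mutants and 139 and 159 in controls and fell by 1.33 ± 0.22 (adjusted p = 0.00250), with 1.76 ± 0.21 on the other. In both genes mutant 1 was the lowest array. On the probe sets that stood for them the controls agreed within 1.14-fold, unlike Col1a1 and Col3a1. On the other tested probe set of Col14a1 the controls were 1.26-fold apart. Col16a1 had 33.8 and 105.8 in mutants and 147 and 154 in controls, a fall of 1.33 ± 0.45 (adjusted p = 0.0493) that was lost under 8 of 12 alternatives. The value of Col16a1 was -0.50 without mutant 1 (adjusted p = 0.0671), -1.36 without control 1 (adjusted p = 0.122) and -1.29 without control 2 (adjusted p = 0.134).

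The remaining FACIT genes were Col20a1 and Col22a1. Col20a1 was near background on every array (23.4 and 18.5 in mutants, 17.1 and 18.8 in controls, adjusted p = 0.691). For Col22a1, a collagen of tissue junctions, the probe sets disagreed. The one that stood for the gene, highest by mean of log2 signals, gave 20.3 and 17.5 in mutants and 18.5 and 18.6 in controls (adjusted p = 0.973). The other tested probe sets gave 48.8 and 55.6 in mutants against 1.37 and 7.01 in controls, and 63.0 and 52.0 in mutants against 1.45 and 6.08 in controls, at least 3.59-fold and 3.95-fold higher. On a linear scale these have the higher mean signal, so the call of Col22a1 depended on how its probe set was chosen. Taken by mean signal, a choice added after the values were seen, Col22a1 was called higher (adjusted p = 0.00270) and 12 collagen genes were higher.

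Among the other classes, Col8a1, Col18a1 and Col26a1 rose. Col18a1, the basement membrane collagen from which endostatin is cleaved, had 1265 and 1237 in mutants and 619 and 518 in controls, rising by 1.14 ± 0.11 (adjusted p = 0.000153), and its second probe set rose by 1.15 ± 0.12. Col8a1, a short-chain collagen best known from vessels and the cornea, had 378 and 634 in mutants and 111 and 94.3 in controls and rose by 2.26 ± 0.23 (adjusted p = 0.000210), as did its other 2 probe sets (2.75 ± 0.31 and 1.98 ± 0.41). Mutant 2 was the brighter mutant on all 3 probe sets of Col8a1, by 1.68 to 1.86-fold. Of 8 endothelial markers, 0 and 2 were above background on the mutants and 0 and 1 on the controls, with summed signals of 63.9 and 60.8 in mutants and 59.5 and 84.9 in controls. Col26a1, a short secreted collagen, had 158.6 and 178 in mutants and 2.10 and 6.18 in controls, where it was below background, and was at least 11.6-fold higher (adjusted p = 0.000121).

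The type VI chains, which form beaded filaments, were low in these samples. Col6a3 had 13.5 and 13.2 in mutants, both below background, and 34.4 and 66.8 in controls, at least 3.03-fold lower (adjusted p = 0.00817). Control 2 was 1.94-fold above control 1 for Col6a3, and the call was lost without control 2 (adjusted p = 0.0880). Col6a2 had 40.9 and 47.0 in mutants and 43.9 and 53.1 in controls (adjusted p = 0.676), while its second probe set had 17.5 and 6.66 in mutants and 18.5 and 42.8 in controls. Col6a1 was above background on control 2 alone, with 8.65 and 13.1 in mutants and 12.1 and 27.1 in controls. On each of these 4 type VI probe sets control 2 was the brighter control. Col15a1 (adjusted p = 0.339) and Col23a1 (adjusted p = 0.387) passed the filter through the mutants and were not called. The genes with no tested probe set were Col6a1, Col6a4, Col6a5, Col8a2, Col9a2, Col10a1, Col13a1, Col24a1 and Col25a1, with highest signals between 1.12 (Col10a1) and 27.1 (Col6a1).

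**Figure D3:**
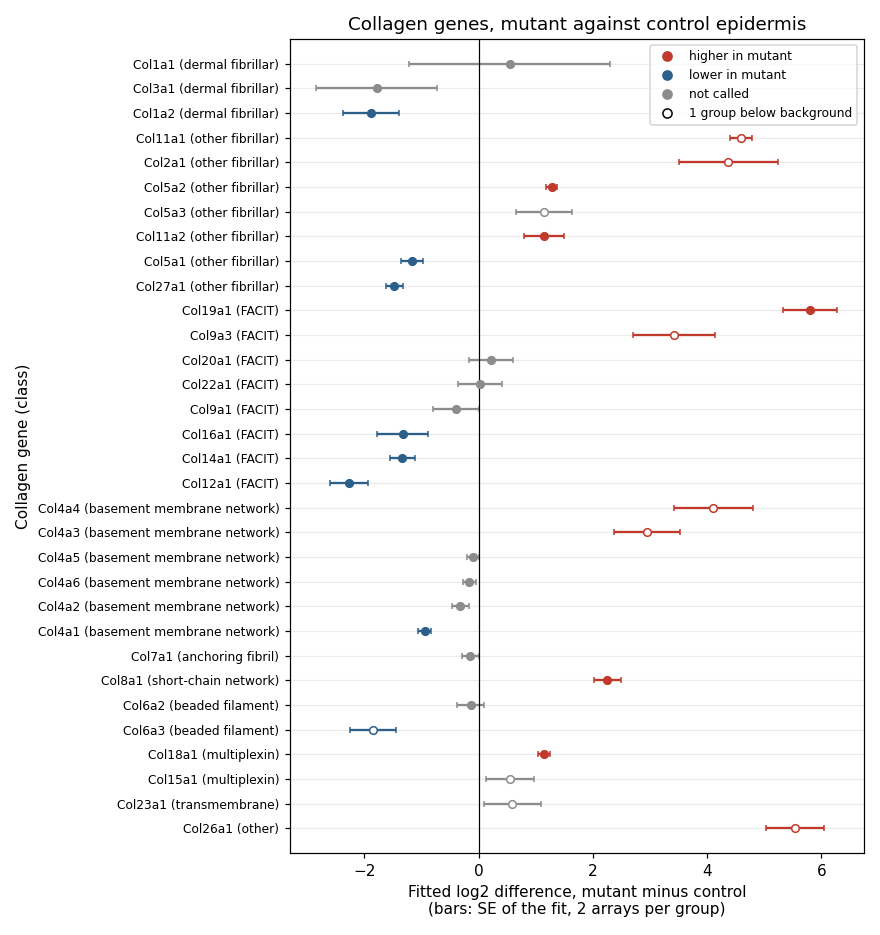
Fitted log2 difference, mutant minus control, of the 32 tested collagen genes with the standard error of the fit (bars, 2 arrays per group); red is higher, blue lower and grey not called, and open circles mark genes below background on both arrays of 1 group, whose fitted size is no measure of the fold. Col4a2, Col4a5, Col4a6 and Col7a1 lie near 0 with short bars, Col1a1 and Col3a1 have bars of 1.76 and 1.06, and Col19a1 lies at 5.80.

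The authors' deposited table, made from GCRMA values and kept to probe sets differing at least 2-fold between groups, held 33 collagen probe sets of 19 genes, 18 of them higher and 15 lower in the mutant. That table came from the same 4 arrays, and the share of its 6296 rows called by limma was not looked up. The next count is thus a description. Of the 33, 32 were also called by limma in the same direction. The exception was Col3a1, which the authors' deposited table gives as 6.72-fold higher in control than in mutant. In that table its ratios to the control mean were 0.0418 and 0.0497 in mutants and 0.0480 and 1.95 in controls, so that control 1 lay between the mutants and control 2 alone stood high. For Col1a2 the authors' deposited table gives 0.0619 and 0.278 in mutants and 0.445 and 1.55 in controls, and for Col6a3 0.162 and 0.163 in mutants and 0.425 and 1.58 in controls. Both also stood higher on control 2. For Col11a1 the ratios in the authors' deposited table were 124 and 104 in mutants and 1.01 and 0.988 in controls, and for Col5a2 2.86 and 3.02 in mutants and 1.00 and 0.995 in controls. For these the controls of that table agreed closely, though by the deposited signals Col11a1 was below background on both controls. The controls of Col19a1 lay further apart in that table, at 1.57 and 0.429 on the probe set that stood for the gene. Col22a1 stands in it with a probe set given as 11.2-fold higher in the mutant, the one that gave 63.0 and 52.0 in mutants above.

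Genes that make and process procollagen moved in both directions, with 6 higher, 4 lower and 16 not called of 26 tested (38.5% called, against 45.1% of all genes). Serpinh1, the collagen chaperone HSP47, had 2068 and 2099 in mutants and 951 and 818 in controls and rose by 1.24 ± 0.10 (adjusted p = 6.19e-05). Plod2, a lysyl hydroxylase of crosslinking sites, had 592 and 612 in mutants and 240.2 and 287 in controls and rose by 1.20 ± 0.12. Tll1, a procollagen C-proteinase, had 114 and 100.2 in mutants and 11.2 and 7.85 in controls, at least 7.36-fold higher. It passed the filter through the mutant arrays alone. Pcolce, which enhances procollagen cleavage, rose by 2.85 ± 0.31 and P4ha1, a prolyl 4-hydroxylase subunit, by 0.67 ± 0.12. Both were added as examples after their values were seen. Crtap, a subunit of the prolyl 3-hydroxylase complex, had 405 and 414 in mutants and 847 and 842 in controls and fell by 1.05 ± 0.09 (adjusted p = 0.000106). P4hb and Ppib, general folding enzymes chosen as examples after their values were seen, had 0.07 ± 0.08 (adjusted p = 0.495) and 0.14 ± 0.11 (adjusted p = 0.341). The median of this list was 0.13, beside -0.06 over all genes, and is a description, since it includes Tll1.

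Laminins, nidogens and collagen receptors gave 8 rises, 2 falls and 8 genes not called of 18 tested (55.6% called, against 45.1% of all genes). Their median was 0.30, beside -0.06 over all genes. Of the rises, Lama2 (at least 1.99-fold) and Nid2 (at least 1.79-fold) passed the filter through the mutant arrays alone. Lama1 passed through the controls alone and was not called. The count and the median of this list are thus descriptions. The largest moderated statistics were those of laminin chains. Lamb1 had 826 and 1063 in mutants and 327 and 314 in controls and rose by 1.55 ± 0.13 (adjusted p = 8.71e-05). Lamc1 had 717 and 692 in mutants and 309.8 and 253 in controls and rose by 1.33 ± 0.12, and the epidermal chains Lamb3 and Lama5 rose by 1.26 ± 0.13 and 1.14 ± 0.12. Lamb2 (-1.13 ± 0.16) and Nid1 (-1.45 ± 0.25), a nidogen that links laminin to type IV collagen, fell; both were named after their values were seen, as were the receptors that follow. Among receptors Itgb1 rose by 0.44 ± 0.10 and Itga2 by 0.74 ± 0.24, and Ddr1 had 0.35 ± 0.14 (adjusted p = 0.0743). The count of rises was 5 without mutant 1.

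Of 6 tested dermal markers other than collagens 2 were higher, 2 lower and 2 not called, too few to read against the 45.1% called of all genes. Fap fell by 1.26 ± 0.12 (adjusted p = 0.000139) and Thy1, a fibroblast surface glycoprotein, with 43.0 and 23.4 in mutants and 123 and 93.3 in controls, fell by 1.76 ± 0.32. Prrx2, a mesenchymal homeobox gene, had 104 and 120.8 in mutants and 5.79 and 11.5 in controls, at least 7.73-fold higher. Dcn had 0.30 ± 0.08 (adjusted p = 0.0225), a call lost under 6 of 12 alternatives, among them the scaling to a common median and the fits without mutant 2, control 1 or control 2. Lum (-0.33 ± 0.80, adjusted p = 0.776) was not called, nor was Dpt, which was below background on both mutants and had 16.1 and 18.5 in controls (adjusted p = 0.156). Prrx2 passed the filter through the mutant arrays alone and Dpt through the control arrays alone. Such genes had to differ, so the counts of this list are a description. Calls of dermal genes that are not collagens went both ways, and the share of any dermal cells in the collagen differences was not tested.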

How the data were processed

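Per the submitters' processing notes the authors used GCOS and MAS5, and they deposited a signal intensity per probe set on a linear scale, with the same trimmed mean on every array (2% off each end), so the arrays were not normalized again. A second table deposited by the authors holds each array's ratio to the mean of the controls; per the file headers it was made from GCRMA values, kept where flags were Present on at least 2 of 4 samples and groups differed 2-fold. Deposited instrument settings showed 1 fluidics station, 1 scanner and 1 scan day, and a module for each array. The 64 array control probe sets were removed from 45101, and 28434 were tested. Of 34945 probe sets naming 1 gene, 34741 symbols were updated by Entrez identifier with a GRCm38.p6 gene table. The limma fit (version 3.58.1, R 4.3.3, lmFit, eBayes with intensity trend, two-sided, mutant minus control) was tested on simulated data. There, false calls were a larger share of calls than the threshold allows, and most fell in the dimmest of 5 equal bins of tested probe sets. Far fewer probe sets were changed in the simulation than were called in the data. The share of false calls in the data is thus not known from it. A gene below background on both arrays of 1 group is given as "at least N-fold", the other group's mean log2 signal against the higher of signal and 40th percentile. An adjusted p printed with it is of the fitted difference of the deposited signals and is no test of that bound.

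The members and the 3 other lists were chosen with earlier results of these data known. Named were Col1a1, Col1a2, Col3a1, every called collagen gene, those over 4-fold apart between replicates, and the 4 genes of each other list with the largest moderated statistic. The gene's probe set was the one with the highest mean log2 signal. Alternatives were scaling to a common median, quantile normalization, no filter on dim probe sets, low signals set to the 40th percentile, no intensity trend, averaged probe sets of a gene, each array left out the sample number as a block and, added after the values were seen, the probe set with the highest mean signal. The number of arrays limits the precision, and with 1 array left in a group it is assumed to vary like the other group. Promoter windows are from RefSeq.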

Additional observations from a re-analysis of the deposited data

How the results depend on the processing

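With 2 arrays per group, 13 of the 19 collagen calls held under all 12 alternatives, and none of the 33 named genes changed sign past the threshold. The other 6 (Col1a2, Col2a1, Col6a3, Col9a3, Col11a2 and Col16a1) were lost when 1 array was left out, as given with each in the text. Leaving out each array in turn gave 5 to 8 lower collagen genes, the 5 without control 2, and 8 to 11 higher ones. It gave 5 to 8 higher genes of the basement membrane and receptor list, and 1 to 2 higher dermal markers. That last count was also 1 under median centring, without the filter and without the intensity trend. In these settings the call of Dcn was lost and that of Prrx2 was kept. Taking each gene by mean signal changed the probe set of Col12a1 and Col22a1 and gave 12 higher collagen genes. Median centring moved the median of all genes by -0.11 on the log2 scale and left 11 and 8 collagen calls. Samples shared numbers in their titles, but deviations of same-numbered arrays correlated at 0.015 over tested probe sets. With the number as a replicate block 11 collagen genes were higher and 9 lower, Col3a1 being added (adjusted p = 0.0460).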
